A study of Mus musculus with 335 samples.

Results

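The genes described here were 8 members of the retinoid pathway that carry a row in the deposited count table, chosen by name out of 13448 entries with a gene symbol: Adh1, Aldh1a2, Crabp1, Crabp2, Rara, Rarb, Rarg and Rxra. All 8 had a row and at least 100 counts over the cells compared, so none was lost to a filter. They were followed across 335 single cells of the aorta-gonad-mesonephros (AGM), the region of the mouse embryo around the dorsal aorta where haematopoietic stem cells (HSCs) arise. All cells came from wild-type embryos at E11.5, and each cell was profiled by Smart-seq2, a plate method that reads full-length transcripts.

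The cells formed 4 sorted groups. HSC held 65 EPCR+CD45+ cells, a gate that includes the stem cells but is not limited to them. Dorsal held 93 Ngfr+Pdgfrb- cells taken from the dorsal side of the aorta, and Ventral held 89 Ngfr+Pdgfrb- cells taken from its ventral side. Mesenchymal held 88 Pdgfrb+Ngfr- cells, also ventral, among which are the mesenchymal cells below the aorta. Ngfr is a neurotrophin receptor found on neural crest-derived cells, and Pdgfrb is a growth factor receptor of mesenchyme and pericytes. The labels name no embryo or litter and each group was 1 sequencing pool, so each group counted as 1 sample. No p-value or standard error could be made, and pool and group cannot be told apart.

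Retinoids are made from dietary vitamin A. Retinol is oxidized to retinal by alcohol and retinol dehydrogenases such as ADH1, and retinal is oxidized to retinoic acid by retinaldehyde dehydrogenases, of which ALDH1A2 is the main one in the mid-gestation embryo. In the cytosol retinoic acid is bound by CRABP1 and CRABP2, and CRABP2 passes it to the nuclear receptors RARA, RARB and RARG. These receptors bind DNA as pairs with a retinoid X receptor such as RXRA and switch on target genes when retinoic acid is bound. Rarb is a textbook target of the pathway, as is Cyp26a1, which codes for an enzyme that breaks retinoic acid down. The promoters of both are known for a pair of core sites in direct repeat.

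The 2 promoter windows below are shown because, of all genes of the pathway searched, these were the ones whose window held such a repeat. Each window runs from 250 bases before to 50 bases after the start given by RefSeq on GRCm38.p6, and is printed 5′ to 3′ on the strand of the gene, with the core sites of the repeat in capitals. The Rarb window is chr14:16575427-16575726 on the minus strand and lies inside the annotated span of the gene, and the Cyp26a1 window is chr19:37697558-37697857 on the plus strand.
Rarb: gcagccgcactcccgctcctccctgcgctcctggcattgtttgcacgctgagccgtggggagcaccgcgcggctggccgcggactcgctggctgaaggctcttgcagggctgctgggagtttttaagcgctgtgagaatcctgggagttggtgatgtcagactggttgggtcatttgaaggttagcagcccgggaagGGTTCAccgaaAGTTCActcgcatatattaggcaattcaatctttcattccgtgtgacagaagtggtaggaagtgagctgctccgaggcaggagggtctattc
Cyp26a1: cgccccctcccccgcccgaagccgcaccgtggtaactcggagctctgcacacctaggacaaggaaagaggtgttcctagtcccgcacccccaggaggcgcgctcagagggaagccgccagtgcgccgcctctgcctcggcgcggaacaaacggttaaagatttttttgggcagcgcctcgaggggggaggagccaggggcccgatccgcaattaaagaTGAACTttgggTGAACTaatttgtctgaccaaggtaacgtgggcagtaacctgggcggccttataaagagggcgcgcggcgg

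The search used the core site AGGTCA and its variants, which were AGTTCA as well as GGTTCA as well as GGGTCA. Any 2 of these in the same direction with NNNNN between them counted as a repeat, on both strands. The Rarb repeat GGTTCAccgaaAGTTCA starts 53 bases before the start. The Cyp26a1 repeat reads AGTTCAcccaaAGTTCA on the strand opposite to the gene, and its leftmost base in the printed window lies 32 bases before the start. Such a repeat was in 32 of 32851 windows of 300 bases (0.0974%), which is 31 of 27025 genes. RefSeq windows were found for 7 of the 8 genes, and Rarb was the 1 of these 7 with the repeat. Among the 47 other pathway genes with a window, Cyp26a1 was the 1 with it. With NN in place of NNNNN the repeat was in 0.268% of windows and in none of these pathway genes, whereas a single core site was in 43.7% of all windows. A match is a stretch of letters and says nothing of binding, and no match says only that these letters are not in that window. The count table sums all transcripts of a gene, so it does not tell which Rarb start was used.

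Summed estimated counts came to 82516453 for the HSC pool, 108409099 for Dorsal, 110598792 for Ventral and 68560755 for Mesenchymal, with a median of 943772, 1033890, 574689 and 505916 counts per cell in that order of groups. Levels are given in CPM, the counts of a gene per 1000000 counts summed over the group, with exact Poisson 95% limits that cover counting error only. A single cell, Ventral 41, gave 18.5% of all Ventral counts, while the deepest cell gave from 3.56% to 9.04% in the other pools. The pools reused indices, with 55 index pairs present in all 4. The sort genes followed the labels: Ngfr was at 281 CPM in Dorsal and at 90.9 CPM in Ventral but at 0.19 CPM in HSC and 7.32 CPM in Mesenchymal, Pdgfrb was at 127 CPM in Mesenchymal, and Procr, which codes for EPCR, was at 163 CPM in HSC. The Ngfr+ gate also held cells of other kinds: macrophage markers, all 9 of them over 10 CPM on both sides, summed to 1087 CPM in Dorsal and to 816 CPM in Ventral, against 3.0 CPM in Mesenchymal. Beside each share of cells, a cell counts as positive with at least 5 counts of the gene after every cell was thinned to 310000 counts, which left 64 HSC, 92 Dorsal, 80 Ventral and 69 Mesenchymal cells.

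Aldh1a2, the enzyme that makes retinoic acid, was read in a minority of cells on the ventral side and in almost none elsewhere. Its summed level was 0 in HSC, 7.29 CPM (6.79 to 7.81) in Dorsal, 58.3 CPM (56.9 to 59.7) in Ventral and 112 CPM (110 to 115) in Mesenchymal. A lower sum may come from fewer cells of a type or from less RNA per cell, and a sum alone cannot tell these apart. Positive cells were 0 of 64 in HSC (exact upper limit 5.601%), 2 of 92 in Dorsal (2.17%, exact limits 0.264 to 7.63%), 12 of 80 in Ventral (15%, 8.0 to 24.7%) and 17 of 69 in Mesenchymal (24.6%, 15.1 to 36.5%). All 17 positive Mesenchymal cells also held at least 20 counts. The median cell was at or near 0 in every group, at 1.05 CPM in Ventral and 0 in Mesenchymal, while the highest cell was at 1729 CPM in Ventral and 2673 CPM in Mesenchymal. Ventral and Mesenchymal thus held few high cells among many at or near 0. In Dorsal 1 cell, Dorsal 61, held 656 of the 790 counts, and without it the level was 1.26 CPM. In Ventral 1 cell, Ventral 56, held 38.1% of the counts and the level without it was 37.3 CPM, while Ventral 41 held 3 counts and the level without that cell was 71.5 CPM.

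As a ratio of plain CPM, Aldh1a2 was 8.0-fold lower in Dorsal than in Ventral (7.43 to 8.62 by counting error) and 1.92-fold lower in Ventral than in Mesenchymal (1.86 to 1.99). On the log2(CPM + 1) scale, which all log2 folds here use, the fold of Dorsal against Ventral without the top cell of each group was -4.08, against -2.84 with all cells. The summed level was from 2.24 to 13.2 CPM in odd-index and even-index cells of Dorsal, from 34 to 84 CPM in those of Ventral and from 65.3 to 151 CPM in those of Mesenchymal. Thus Dorsal lay apart from Ventral beyond this spread within a pool, and Ventral and Mesenchymal overlapped. In HSC no count was seen, and a floor of 3 counts over the group put its level at least 200.4-fold lower than in Dorsal, 1603-fold lower than in Ventral and 3081-fold lower than in Mesenchymal. The first of these bounds rests on Dorsal 61, and without that cell it was 34.6-fold. The gene lies at chr9:71215789-71296243 on the plus strand in GRCm38.

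Adh1, the alcohol dehydrogenase able to oxidize retinol (chr3:138260991-138290698, plus strand), had no count in any HSC or Dorsal cell. Its sum was 476 CPM (472 to 480) in Ventral and 35.4 CPM (34 to 36.8) in Mesenchymal, but each of these rested largely on the deepest cell of the pool. Ventral 41 held 50763 of the 52597 Ventral counts (96.5%), and Mesenchymal 22 held 1543 of the 2425 Mesenchymal counts (63.6%). Without these cells the levels were 20.4 CPM in Ventral and 14.1 CPM in Mesenchymal. Low counts of Adh1 in Ventral followed the indices of Ventral 41: of the 17 wells that share its i7 or i5 index 16 had at least 5 counts, against 6 of the 71 other wells, whose summed level was 6.90 CPM. The part that shared indices played in the Ventral level was not tested further. Positive cells were 20 of 80 in Ventral (25%, 16 to 35.9%) and 13 of 69 in Mesenchymal (18.8%, 10.4 to 30.1%), and the limits overlap. With the floor of 3 counts Adh1 was at least 17185-fold lower in Dorsal than in Ventral, a figure that carries Ventral 41 in full.

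Ventral 41 also held other genes of the pathway and of steroid synthesis. It had Adh1 at 2479 CPM together with Nr5a1, a regulator of steroid-producing cells, at 486 CPM. The steroid enzymes Hsd3b1 and Cyp11a1 were at 450.2 CPM and 281 CPM. Nr5a1 came from a list of coelomic and gonad markers. The other measured genes of that list, Wt1, Upk3b, Gata4 and Lhx9, were at 0.0691 CPM or lower in this cell. Of the mesenchyme markers, Prrx1 was at 563 CPM and Col3a1 at 433 CPM, while Col1a1 was at 0.486 CPM and Pdgfra at 0. Aldh1a1, another retinaldehyde dehydrogenase, was at 385 CPM in this cell and held 99.5% of its Ventral counts there. The same cell had 0 counts of Crabp1, Rarb, Rarg and Rxra, 3 of Aldh1a2, 3 of Crabp2 and 67 of Rara (3.26 CPM). Of the sort genes it had 7.45 CPM of Ngfr and no count of Pdgfrb.

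**Figure D1:**
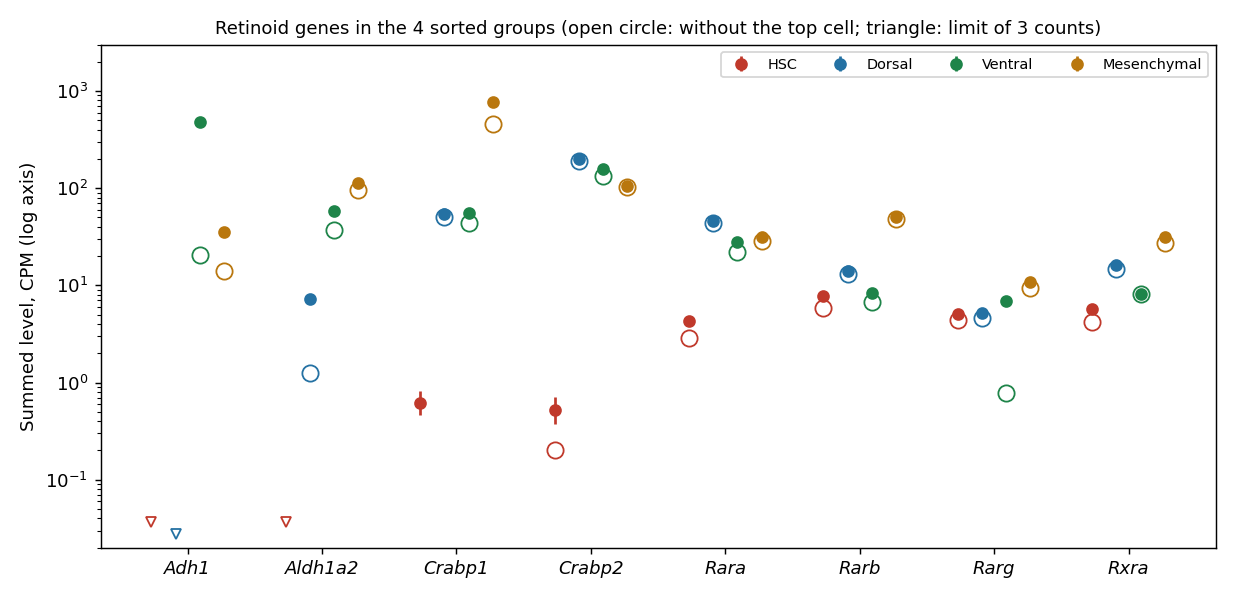
Summed level in CPM on a log axis for the 8 genes in HSC, Dorsal, Ventral and Mesenchymal; filled points carry exact Poisson 95% limits, open circles leave out the cell with the most counts of the gene, and triangles mark the level of 3 counts where no count was seen. Open and filled points lie far apart for Adh1 in Ventral (476 and 20.4 CPM), Aldh1a2 in Dorsal (7.29 and 1.26 CPM) and Rarg in Ventral (6.87 and 0.786 CPM); for Crabp1 in HSC no open circle is drawn, since all counts were in 1 cell.

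The plot of summed levels also shows the binding proteins. Crabp1 (chr9:54764748-54773110, plus strand) was highest in Mesenchymal. It was at 0.615 CPM in HSC, 54.7 CPM (53.3 to 56.1) in Dorsal, 55.9 CPM (54.5 to 57.3) in Ventral and 763 CPM (757 to 770) in Mesenchymal. All 51 HSC counts were in HSC 30, so 64 of 65 HSC cells held none. Mesenchymal 22 held 46% of the Mesenchymal counts, and the level without it was 453 CPM. Of the 16 Mesenchymal wells that carry its i7 or i5 index 15 had at least 5 counts, with a median of 102 counts. Of the 71 other wells 55 had at least 5 counts, with a median of 126 counts. The part that shared indices played in the Mesenchymal level was not tested. The median cell was at 0 in HSC, 30.7 CPM in Dorsal, 13.4 CPM in Ventral and 211 CPM in Mesenchymal, and the highest cell at 73.6, 301, 653 and 3879 CPM in that order of groups. Crabp1 did not differ between Dorsal and Ventral beyond counting error in the sums, but positive cells were 61 of 92 in Dorsal (66.3%, 55.7 to 75.8%) and 37 of 80 in Ventral (46.3%, 35 to 57.8%). Without Ventral 41, which held none, the Ventral level was 68.6 CPM. Ventral 8 held 27.9% of the Ventral counts, and the level without it was 43.7 CPM. In odd-index and even-index cells the log2 fold of Dorsal against Ventral was -0.65 and 0.74. The order of Dorsal and Ventral in the sums thus depended on the cells included. Ventral was 13.7-fold lower than Mesenchymal (log2 fold -3.75), and the log2 fold was between -4.00 and -2.71 under every alternative run.

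Crabp2 (chr3:87948666-87953376, plus strand), the carrier that hands retinoic acid to its receptors, was read in most cells of the 3 groups other than HSC. It was at 0.518 CPM in HSC, 201 CPM (199 to 204) in Dorsal, 157 CPM (154 to 159) in Ventral and 104 CPM (102 to 107) in Mesenchymal. Positive cells were 2 of 64 in HSC (3.13%, 0.381 to 10.8%), 81 of 92 in Dorsal (88%, 79.6 to 93.9%), 60 of 80 in Ventral (75%, 64.1 to 84%) and 54 of 69 in Mesenchymal (78.3%, 66.7 to 87.3%). The median cell was at 0 in HSC, 160 CPM in Dorsal, 97.3 CPM in Ventral and 73.6 CPM in Mesenchymal. The 3 HSC cells with any count reached at most 35.2 CPM, below the median cell of each of the other groups. Without Ventral 41, which held 3 counts, the Ventral level was 192 CPM. The log2 fold of Dorsal against Ventral was then 0.07, against 0.36 with all cells. Ventral 30 held 21.7% of the Ventral counts, and the level without it was 133 CPM. The gap in the sums thus depended on single cells. The median cell and the share of positive cells were higher in Dorsal, though the limits of the shares overlap. HSC was 388-fold lower than Dorsal (287 to 534), 302-fold lower than Ventral (223 to 416) and 202-fold lower than Mesenchymal (149 to 277). Without HSC 44, which held 61.5% of the HSC counts, the HSC level was 0.201 CPM.

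**Figure D2:**
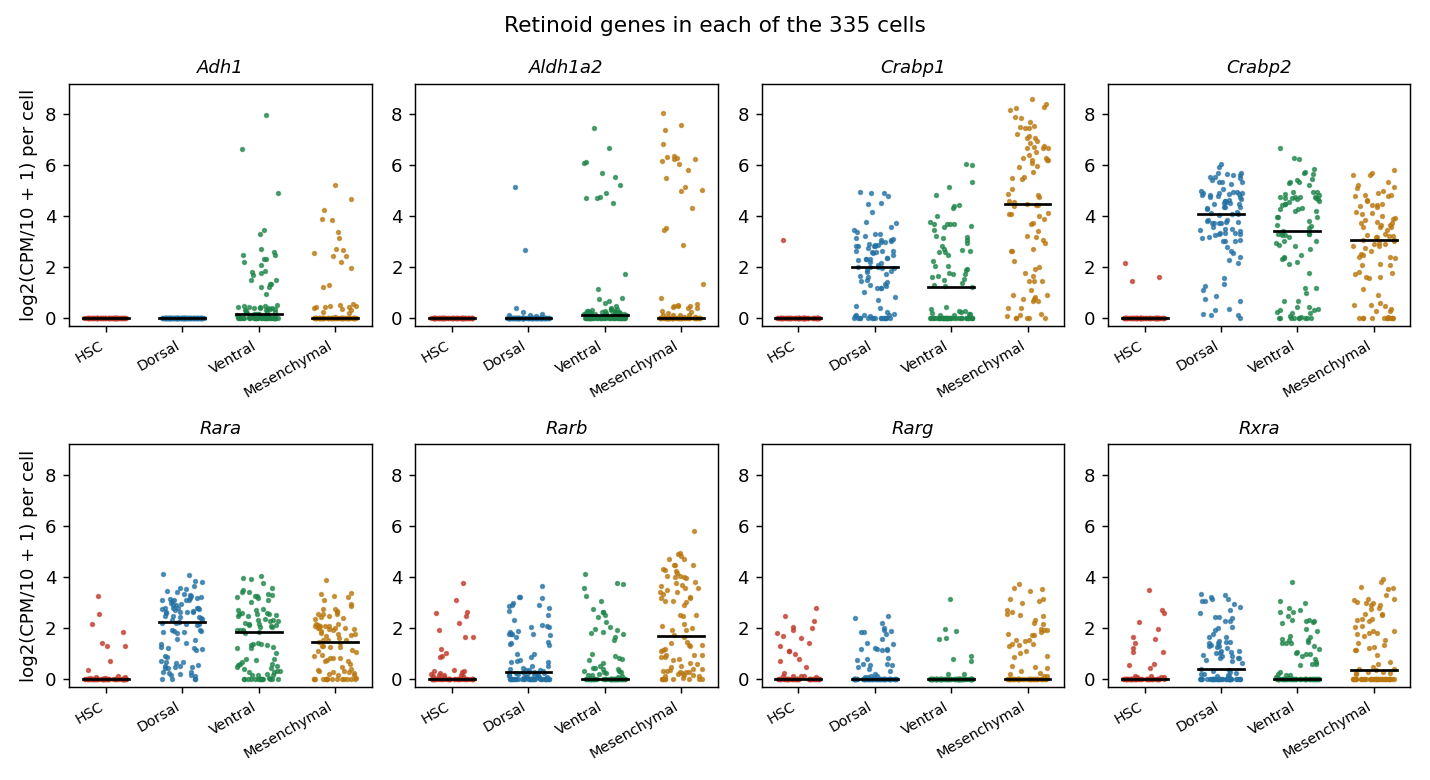
Each of the 335 cells as a point, with log2(CPM/10 + 1) of the cell on the vertical axis and the 4 groups on the horizontal axis of each panel; the black line is the median cell. Aldh1a2 and Adh1 are carried by a minority of cells above a median at or near 0, whereas Crabp1 and Crabp2 lift the median cell in Dorsal, Ventral and Mesenchymal, and the median of every gene in HSC is 0.

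Across the plot of single cells the receptors were mostly lower than the carriers. Rara (chr11:98927818-98974942, plus strand), the receptor found in most tissues, was at 4.34 CPM (3.90 to 4.81) in HSC, 45.6 CPM (44.4 to 46.9) in Dorsal, 28.1 CPM (27.1 to 29.1) in Ventral and 31.3 CPM (30 to 32.7) in Mesenchymal. The median cell was at 0 in HSC, 37.1 CPM in Dorsal, 26.1 CPM in Ventral and 17.1 CPM in Mesenchymal, and the highest cell at 84.6, 164, 155 and 136 CPM in that order of groups. Positive cells were 5 of 64 in HSC (7.81%), 62 of 92 in Dorsal (67.4%), 49 of 80 in Ventral (61.3%) and 40 of 69 in Mesenchymal (58%). The limits of the last 3 shares overlap, and that of HSC (2.59 to 17.3%) lies below them. HSC was 10.5-fold lower than Dorsal (9.45 to 11.7), 6.46-fold lower than Ventral (5.80 to 7.24) and 7.21-fold lower than Mesenchymal (6.45 to 8.10). HSC 8 held 34.4% of the HSC counts, and the level without it was 2.90 CPM. The order of Ventral and Mesenchymal turned round with cells weighted equally and without the deepest cells.

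Rarb (chr14:16430839-16819156, minus strand), the receptor gene with the repeat printed above, was highest in Mesenchymal. It was at 7.78 CPM (7.19 to 8.41) in HSC, 14.2 CPM (13.5 to 14.9) in Dorsal, 8.27 CPM (7.75 to 8.83) in Ventral and 50.4 CPM (48.8 to 52.1) in Mesenchymal. The median Mesenchymal cell was at 22.2 CPM, against 1.98 CPM in Dorsal and 0 in HSC and in Ventral. Positive cells were 9 of 64 in HSC (14.1%), 27 of 92 in Dorsal (29.3%), 18 of 80 in Ventral (22.5%) and 38 of 69 in Mesenchymal (55.1%, 42.6 to 67.1%). The Mesenchymal share lay above the limits of the others, which reach 39.8% in Dorsal. Ventral was 6.10-fold lower than Mesenchymal (5.67 to 6.56), and no single cell held more than 9.69% of the Mesenchymal counts. The levels in odd-index and even-index cells were 57.4 and 44.6 CPM in Mesenchymal, and from 4.34 to 16 CPM in Dorsal and Ventral. The ratio of HSC to Ventral was 0.940 (0.849 to 1.04 by counting error), but Ventral 41 held no Rarb count, and without it the Ventral level was 10.2 CPM and the ratio 0.766 (0.692 to 0.849). In odd-index and even-index cells the log2 fold of this pair was 1.28 and -1.16, so the order of HSC and Ventral was not settled. Dorsal and Ventral overlapped in the range of odd-index and even-index cells, and with cells weighted equally their log2 fold was 0.01.

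Rarg (chr15:102234938-102257517, minus strand), a receptor known for roles in cartilage and skin, was low in all groups. It was at 5.10 CPM in HSC, 5.26 CPM in Dorsal, 6.87 CPM in Ventral and 10.8 CPM in Mesenchymal. The Ventral level was that of 1 cell: Ventral 30 held 680 of 760 counts (89.5%), and the level without it was 0.786 CPM. Without the top cell of each group the log2 fold of Dorsal against Ventral was 1.65, against -0.33 with all cells, and that of Ventral against Mesenchymal was -2.55, against -0.58. Positive cells were 11 of 64 in HSC (17.2%, 8.90 to 28.7%), 14 of 92 in Dorsal (15.2%, 8.58 to 24.2%), 4 of 80 in Ventral (5.0%, 1.38 to 12.3%) and 22 of 69 in Mesenchymal (31.9%, 21.2 to 44.2%). So by cells Ventral had the lowest share, while by summed counts it was the second highest group. The limits of its share overlap those of HSC and Dorsal and lie below those of Mesenchymal.

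Rxra (chr2:27676440-27762957, plus strand), the partner that pairs with the RARs, was at 5.74 CPM (5.24 to 6.29) in HSC, 16.1 CPM (15.3 to 16.9) in Dorsal, 8.24 CPM (7.71 to 8.79) in Ventral and 31.8 CPM (30.5 to 33.2) in Mesenchymal. Positive cells were 10 of 64 in HSC (15.6%), 27 of 92 in Dorsal (29.3%), 25 of 80 in Ventral (31.3%) and 29 of 69 in Mesenchymal (42%). The limits of Dorsal, Ventral and Mesenchymal overlap. Ventral was 3.86-fold lower than Mesenchymal (3.57 to 4.18) in the sums, but with cells weighted equally the log2 fold was -0.85, against -1.83. Mesenchymal 22 held 22.2% of the Mesenchymal counts, and the level without it was 27.2 CPM.

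**Figure D3:**
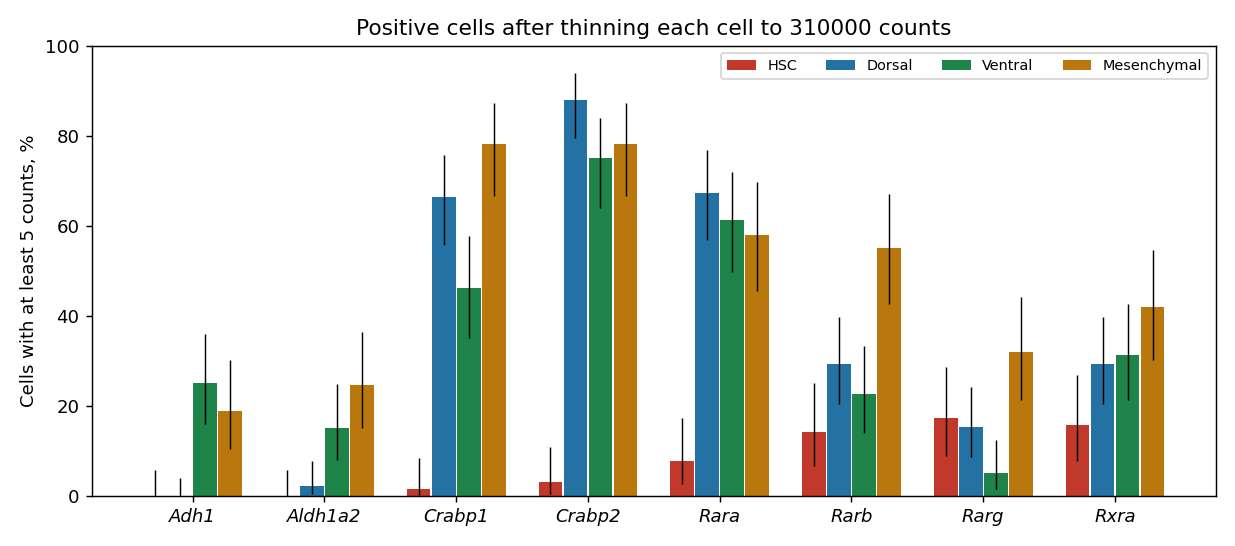
Share of cells in percent with at least 5 counts of each gene after thinning, for 64 HSC, 92 Dorsal, 80 Ventral and 69 Mesenchymal cells; bars start at 0 and lines are exact Clopper-Pearson 95% limits. Crabp2 reaches 88% in Dorsal, Rarb 55.1% in Mesenchymal, and every share in HSC is at or below 17.2%.

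The shares of positive cells could be read together per cell. None of the 8 genes was positive in 34 of 64 HSC cells (53.1%), against 5 of 92 in Dorsal, 4 of 80 in Ventral and 1 of 69 in Mesenchymal. At least 1 of the 4 receptors was positive in 27 HSC cells (42.2%), 74 Dorsal cells (80.4%), 69 Ventral cells (86.3%) and 63 Mesenchymal cells (91.3%). Both binding proteins were positive together in 0 HSC, 57 Dorsal, 31 Ventral and 42 Mesenchymal cells. Crabp2 without Crabp1 was the state of 24 Dorsal, 29 Ventral and 12 Mesenchymal cells, and Crabp1 without Crabp2 that of 4, 6 and 12 cells in that order of groups. Of the 64 HSC cells, 1 was positive for Crabp1 and 2 for Crabp2.

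Compared per length of transcript, which full-length libraries need, Crabp1 and Crabp2 stood above these 4 receptors in each group other than HSC. In Dorsal Crabp2 was at 152 CPM per kilobase of exon, Crabp1 at 68.2, Rara at 10.5, Rxra at 2.94, Rarb at 2.70 and Rarg at 1.23. In Mesenchymal Crabp1 was at 951 CPM per kilobase, Crabp2 at 79, Aldh1a2 at 49.5, Rarb at 9.58, Rara at 7.18, Rxra at 5.82 and Rarg at 2.53. In Ventral Crabp2 was at 119, Crabp1 at 69.7 and Aldh1a2 at 25.7 CPM per kilobase, with the receptors from 1.51 for Rxra to 6.43 for Rara. In HSC the 4 receptors lay between 0.995 for Rara and 1.48 for Rarb, above Crabp1 at 0.767 and Crabp2 at 0.392 CPM per kilobase. Among these 4 receptors Rara was the first in Dorsal and Ventral, and Rarb in HSC and Mesenchymal. The lead of Rarb in HSC was small. Its HSC level was 11.9 CPM in odd-index and 5.01 CPM in even-index cells, and HSC 58 held 26.3% of its counts.

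As counts of genes at least 2-fold apart, the 8 genes gave these totals. For Dorsal against Ventral, which asks how the 2 sides of the aorta differ, 0 of 8 were higher and 2 were lower, Adh1 and Aldh1a2, while 10.1% of 13152 measured genes were higher and 8.3% lower (18.4% either way). For Ventral against Mesenchymal, 1 of 8 was higher, Adh1, and 3 were lower, Crabp1, Rarb and Rxra, while 17.1% of 13065 genes were higher and 12.9% lower (30% either way). Without Ventral 41, none of the 8 was higher in Ventral, beside 17.8% of genes. For HSC against the 3 other groups, 0 of 8 were higher than all of them and 4 were lower than all of them, Aldh1a2, Crabp1, Crabp2 and Rara, while 6.79% of 13446 genes were higher and 11.3% lower (18% either way). Between Dorsal and Ventral the median log2 fold of the 8 genes was 0.16, beside 0.14 over all genes, and between Ventral and Mesenchymal it was -0.76, beside 0.09 over all genes. With 8 genes these counts are a description only, and the comparisons share groups.

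To see which Ngfr+ cells carried each gene, the 182 Dorsal and Ventral cells were grouped into 6 clusters with all retinoid genes kept out of the clustering. A macrophage-like cluster held 17 cells (7 Dorsal, 10 Ventral), a sympathoadrenal-like cluster 36 (21 Dorsal, 15 Ventral) and a glial crest-like cluster 65 (52 Dorsal, 13 Ventral). A cluster of 37 cells (11 Dorsal, 26 Ventral) held both glial crest and sympathoadrenal markers and stayed unnamed. Another 15 cells (1 Dorsal, 14 Ventral) were led by Sall1, Meox1 and Six2, and none of the 6 glial crest or 7 measured sympathoadrenal markers was over 10 CPM in them. The last 12 cells (1 Dorsal, 11 Ventral) included Ventral 41, which held 78.7% of the counts of this cluster. The leading genes of the cluster, such as Grin2b, Pde1a, Nr5a1 and Hsd3b1, were those of this 1 cell, with from 99.4% to 99.9% of their counts in it, so the other 11 cells are described only as the cluster with Ventral 41. The Sall1 cells and the cluster with Ventral 41 were each Ventral but for 1 cell, so cluster and side overlap for them.

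Aldh1a2 in the Ngfr+ gate was mainly in the Sall1, Meox1 and Six2 cells. They held 79.1% of its 7236 counts, at 324 CPM, and 8 of their 13 thinned cells were positive (61.5%, 31.6 to 86.1%). Without Ventral 56 the level of this cluster was 233 CPM. The cluster with Ventral 41 held a further 17.9%, of which 77% lay in Ventral 17. No sympathoadrenal-like cell of 35 and no glial crest-like cell of 64 was positive, and the mixed cluster had 1 of 34. The sums were 0.503 CPM in the sympathoadrenal-like cluster, 0.101 CPM in the glial crest-like cluster and 0.852 CPM in the mixed one. The only Dorsal cell of the Sall1 cluster was Dorsal 61, the cell with most of the Dorsal counts. It was at 341 CPM, beside 322 CPM over the 14 Ventral cells of that cluster.

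The same Sall1, Meox1 and Six2 cells had Crabp2 but hardly Crabp1. Crabp2 was at 199.98 CPM there and positive in 13 of 13 thinned cells, with 121 CPM without Ventral 56, whereas Crabp1 was at 0.532 CPM and positive in 1 of 13. Crabp1 was at 66.5 CPM in the glial crest-like cluster, 107 CPM in the mixed cluster and 38.4 CPM in the sympathoadrenal-like cluster, with 52 of 64, 25 of 34 and 16 of 35 positive cells. Crabp2 was highest in the sympathoadrenal-like cluster, at 337 CPM and 34 of 35 cells, and was at 221 CPM in the mixed and 185 CPM in the glial crest-like cluster. In the macrophage-like cluster, 0 of 15 cells were positive for Crabp2 and 1 of 15 for Crabp1, at 2.64 and 2.49 CPM.

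Among receptors Rara was positive in 24 of 35 sympathoadrenal-like, 45 of 64 glial crest-like and 30 of 34 mixed cells, at levels from 43.6 to 49.7 CPM, but in 1 of 15 macrophage-like cells, at 2.74 CPM. Rarb was at 13.6 CPM in the glial crest-like cluster (23 of 64 cells) and 3.07 CPM in the sympathoadrenal-like cluster (3 of 35), whose limits reach 23.1%, below the 24.3% at which those of the glial crest-like cluster start. Rarg was positive in 14 of 64 glial crest-like cells (21.9%, 12.5 to 34%) and in 0 of 35 sympathoadrenal-like cells, with an upper limit of 10%. The mixed cluster reached 14.4 CPM of Rarg through Ventral 30, which held 96.1% of it, and was at 0.688 CPM without that cell. Rxra was positive in 4 of 15 macrophage-like, 7 of 35 sympathoadrenal-like, 27 of 64 glial crest-like (42.2%) and 5 of 34 mixed cells. The glial crest-like cluster, the largest with 65 of 182 cells, held 59.8% of the Rxra counts. In the Sall1 cells Rara was positive in 6 of 13, Rarb in 3, Rarg in 0 and Rxra in 6 (46.2%). In the cluster with Ventral 41 these were 5, 5 (45.5%), 3 (27.3%) and 3 of 11 cells, in that order. The limits of the shares in both clusters overlap those of the glial crest-like cluster, so their order was not settled.

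**Figure D4:**
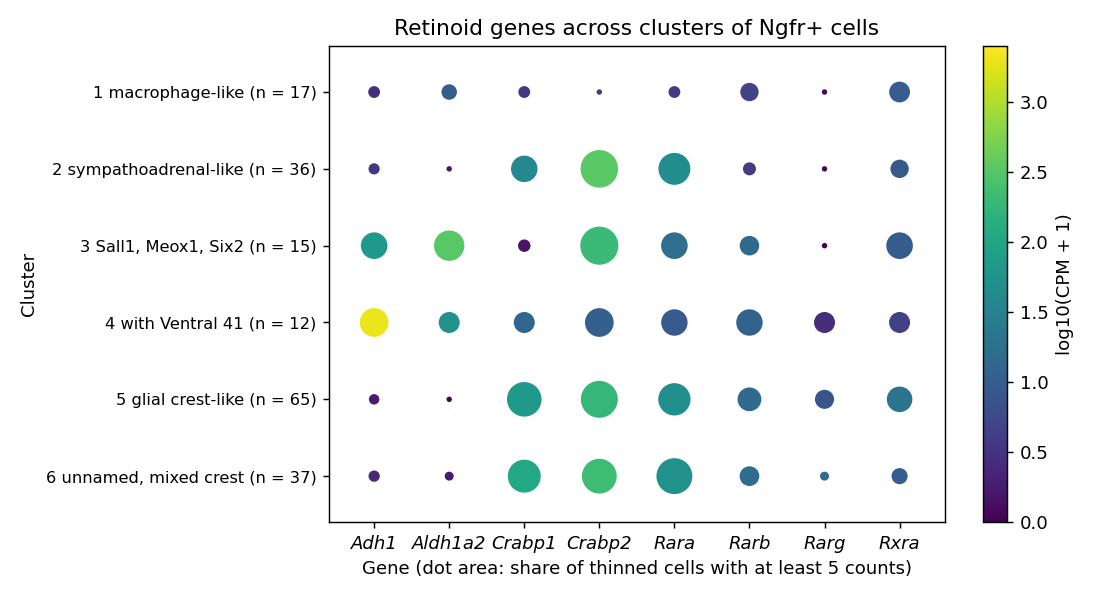
The 8 genes (columns) in the 6 clusters of Dorsal and Ventral cells (rows, with the number of cells); dot area is the share of thinned cells with at least 5 counts and colour the summed level as log10(CPM + 1). Aldh1a2 has its largest dot in the cluster led by Sall1, Meox1 and Six2 (61.5% of cells, 324 CPM), where Crabp1 is near 0 and Crabp2 is in every thinned cell; the bright Adh1 dot of the cluster with Ventral 41 is 99.2% that cell.

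Within a cluster, Dorsal and Ventral cells could be set side by side for the 3 clusters with at least 10 cells of each side. In the glial crest-like cluster Crabp2 was at 216 CPM in 52 Dorsal cells and 50.7 CPM in 13 Ventral cells, of which Ventral 15 gave 40.6% of all counts and none of Crabp2. Without Ventral 15 the Ventral level was 85.4 CPM. Its lowest, median and highest cells were at 2.42, 162 and 650.0 CPM in Dorsal and at 0, 62.6 and 262 CPM in Ventral, so the cells overlap. Rarg was positive in 14 of 52 thinned Dorsal cells and 0 of 12 thinned Ventral cells of this cluster, at 8.44 and 0.584 CPM in the sums over all its cells. Crabp1 had medians of 52 CPM in Dorsal and 50.6 CPM in Ventral. In the sympathoadrenal-like cluster Crabp2 was at 310.1 CPM in 21 Dorsal cells and 396 CPM in 15 Ventral cells, the opposite order, with medians of 267 CPM in Dorsal and 295 CPM in Ventral. The mixed cluster also had the opposite order, at 122 CPM in 11 Dorsal cells and 254 CPM in 26 Ventral cells (199 CPM without Ventral 30), with medians of 88.2 CPM in Dorsal and 159 CPM in Ventral. Each side is 1 pool, and these differences have no replicate check.

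Ventral and Mesenchymal cells with Aldh1a2 could be compared with cells without it. In thinned Ventral cells Crabp1 was positive in 2 of the 12 Aldh1a2-positive cells (16.7%) and 35 of the 68 others (51.5%), and Rara in 4 of 12 (33.3%) and 45 of 68 (66.2%). Rarb ran the other way, with 6 of 12 (50%) and 12 of 68 (17.6%), and Crabp2 was in 10 of 12 (83.3%) and 50 of 68 (73.5%). Over all 89 Ventral cells Spearman's rho of Aldh1a2 with Crabp1 was -0.31 and Pearson's r on the log2 scale -0.32. These values are given as a description, as the cells share a pool and differ in depth. The part that the clusters described above played in them was not tested.

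In Mesenchymal, the 17 Aldh1a2-positive thinned cells differed from the 52 others in several markers. Stra6, the membrane receptor that takes up retinol, was positive in 12 of 17 (70.6%) and 7 of 52 (13.5%). Wt1, a factor of the coelomic lining and its derivatives, was positive in 11 of 17 (64.7%) and 10 of 52 (19.2%). Other markers of the coelomic and gonad list were rarer, with Gata4 in 3 of 17 (17.6%) and 10 of 52 (19.2%) and Lhx9 in 2 of 17 (11.8%) and 4 of 52 (7.69%). Of the smooth muscle and pericyte genes 3 ran the other way from Wt1: Acta2 was positive in 4 of 17 (23.5%) and 27 of 52 (51.9%), Tagln in 5 of 17 (29.4%) and 37 of 52 (71.2%), and Cnn1 in 2 of 17 (11.8%) and 22 of 52 (42.3%). Rgs5, of the same list, did not, with 12 of 17 (70.6%) and 32 of 52 (61.5%). Pdgfra, a mesenchymal receptor, was equally common, in 14 of 17 (82.4%) and 43 of 52 (82.7%). Here Crabp1 was in 13 of 17 (76.5%) and 41 of 52 (78.8%), unlike in Ventral, and Rarb in 13 of 17 (76.5%) and 25 of 52 (48.1%). These markers were picked with the values in view. Stra6 was also among the genes that correlated most with Aldh1a2 over these cells, so its share is no separate support.

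Rarb-positive Mesenchymal cells more often held Dhrs3, an enzyme that turns retinal back to retinol: 24 of 38 (63.2%) and 8 of 31 Rarb-negative cells (25.8%). Dhrs3 was also among the genes that correlated most with Rarb over these cells (rho 0.40). Its share is thus no separate support. Acta2 was in 13 of 38 (34.2%) and 18 of 31 (58.1%). Cyp26a1, the gene with the other repeat printed above, was rare, with at least 5 counts in 4 cells of 335. Of these Mesenchymal 24 held 620 counts together with 335 of Rarb, at 104 CPM of Rarb, a level passed by 24 other Mesenchymal cells. Mesenchymal 26 held 138 counts of Cyp26a1 with no count of Rarb and 329 of Aldh1a2. Ventral 17 held 35 counts with 27 of Rarb and 998 of Aldh1a2, and HSC 3 held 6 counts with neither.

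The genes with the most similar pattern over single cells were taken for each member in the group where it was most often positive, by the highest Spearman correlations. They are a description over cells that share a pool, among 8375 genes in 88 Mesenchymal cells, 9836 in 93 Dorsal cells and 9291 in 89 Ventral cells. For Aldh1a2 in Mesenchymal cells the closest genes included Matn2 (rho 0.45) and Stra6 (0.45). For Crabp1 in Mesenchymal they were Col9a1 (0.48), Ptx3 (0.45) and Dab2 (0.45). For Rarb in Mesenchymal they were Cplx2 (0.47), Dhrs3 (0.40) and Ciapin1 (0.40). For Crabp2 in Dorsal they were Rtl8b (0.57), Kcnh2 (0.53) and Ctnnbip1 (0.49), and for Rara in Dorsal Cdkn1c (0.50), Ilf2 (0.49) and Pik3r3 (0.46). For Rarg and Rxra in Mesenchymal the highest were Stx6 (0.41) and Nek1 (0.41), and for Adh1 in Ventral Bivm (0.47), the last with the index pattern of Ventral 41 in it. The correlation of each member with the total counts of a cell lay between -0.16 and 0.15.

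The other genes of the pathway came from lists by role. Among all measured genes, 10.1% were higher and 8.3% lower in Dorsal against Ventral, and 17.1% and 12.9% in Ventral against Mesenchymal. For HSC against the 3 other groups these shares were 6.79% and 11.3%. Of retinol uptake and storage genes, 4 of 9 listed were measured. Stra6 was at 0.103 CPM in HSC, 34.6 CPM in Dorsal, 58 CPM in Ventral and 25.3 CPM in Mesenchymal, and among the Ngfr+ clusters it was in 29 of 35 sympathoadrenal-like and 27 of 34 mixed cells but 7 of 64 glial crest-like cells. By the 2-fold rule Stra6 was lower in HSC than in all others. In Ventral against Mesenchymal Stra6, Lpl and Lrp2 were higher by this rule, but each call was lost without 1 Ventral cell: the log2 fold of Stra6 was 1.17 with all cells and 0.99 without Ventral 10, that of Lpl 1.43 with all cells and 0.16 without Ventral 21, and that of Lrp2 1.30 with all cells and 0.84 without Ventral 41. In Dorsal against Ventral Lrp2 was lower, with a log2 fold of -1.24 that was -0.78 without Ventral 41, whereas those of Stra6 and Lpl came to -1.02 and -1.05 without that cell. Lpl is also a macrophage product, and 84.6% of its Ngfr+ counts were in the macrophage-like cluster.

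Of the retinol and retinal enzymes 11 of 17 listed were measured, and few were apart. Rdh10, the main retinol dehydrogenase of the embryo, was at 14.2 CPM in HSC, 18.6 CPM in Dorsal, 27.1 CPM in Ventral and 46.2 CPM in Mesenchymal. In the Ngfr+ gate 70.3% of its counts were in the Sall1, Meox1 and Six2 cells, with 11 of 13 positive, the cluster that also held most Aldh1a2. Dhrs3 was at 32 CPM in HSC, 13.1 CPM in Dorsal, 12.3 CPM in Ventral and 45.9 CPM in Mesenchymal, and was the 1 enzyme of the list lower in Ventral than in Mesenchymal. It was positive in 15 of 15 macrophage-like cells and 0 of 35 sympathoadrenal-like cells. Rdh13 was the 1 enzyme lower in HSC, at 12.1 CPM against 51.4 CPM in Dorsal, 51.2 CPM in Ventral and 33.6 CPM in Mesenchymal.

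Among the other synthesis enzymes Aldh1a3 was mainly in the glial crest-like cluster. It was at 7.62 CPM in HSC, 46.9 CPM in Dorsal, 9.74 CPM in Ventral and 5.26 CPM in Mesenchymal, with a log2 fold of 2.16 for Dorsal against Ventral. The glial crest-like cluster held 93.6% of its Ngfr+ counts and had 51 of 64 positive cells (79.7%, 67.8 to 88.7%), against 1 of 35 in the sympathoadrenal-like cluster. So the glial crest-like cells, in which no cell was positive for Aldh1a2, did hold a retinaldehyde dehydrogenase transcript. Aldh1a1 had no count in HSC and in Dorsal and was at 71.6 CPM in Ventral, where Ventral 41 held 99.5% of it and the level without that cell was 0.45 CPM. Aldh1a7 was at 24.8 CPM in Ventral and at 5.72 CPM without Ventral 41, beside 5.56 CPM in Dorsal. Of its Ngfr+ counts the cluster with Ventral 41 held 66.9%. The glial crest-like cluster held 24.7% of them, with at least 5 counts in 11 of 65 unthinned cells.

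The breakdown enzymes were scarce. Cyp26a1 was at 0.0694 CPM in HSC, 0 in Dorsal, 0.315 CPM in Ventral and 11.1 CPM in Mesenchymal, the last from 2 cells. Cyp26b1 was the 1 gene of the list higher in HSC than in all others, at 8.98 CPM against 0.0239 CPM in Dorsal, 0.819 CPM in Ventral and 0.401 CPM in Mesenchymal. Unthinned, it had at least 5 counts in 19 of 65 HSC cells, and no cell held more than 15.5% of its counts.

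Of the listed receptor partners, carriers and other nuclear receptors, 6 of 7 were measured. Higher in Dorsal than in Ventral were 3 of them, beside 10.1% of all genes: Rxrg (19 and 2.99 CPM), Rora (20.2 and 5.62 CPM) and Rxrb (20.2 and 7.52 CPM). Rxrg, another retinoid X receptor, was at 0.089 CPM in HSC and 1.29 CPM in Mesenchymal. The glial crest-like cluster held 90.4% of its Ngfr+ counts, in 28 of 64 cells, against 0 of 35 sympathoadrenal-like cells. Rxrb was at 27.7 CPM in HSC and 24.7 CPM in Mesenchymal, so that HSC cells held more Rxrb than Rxra counts. Fabp5, a fatty acid binder that can carry retinoic acid, was at 209 CPM in HSC, 533 CPM in Dorsal, 347 CPM in Ventral and 167 CPM in Mesenchymal.

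**Figure D5:**
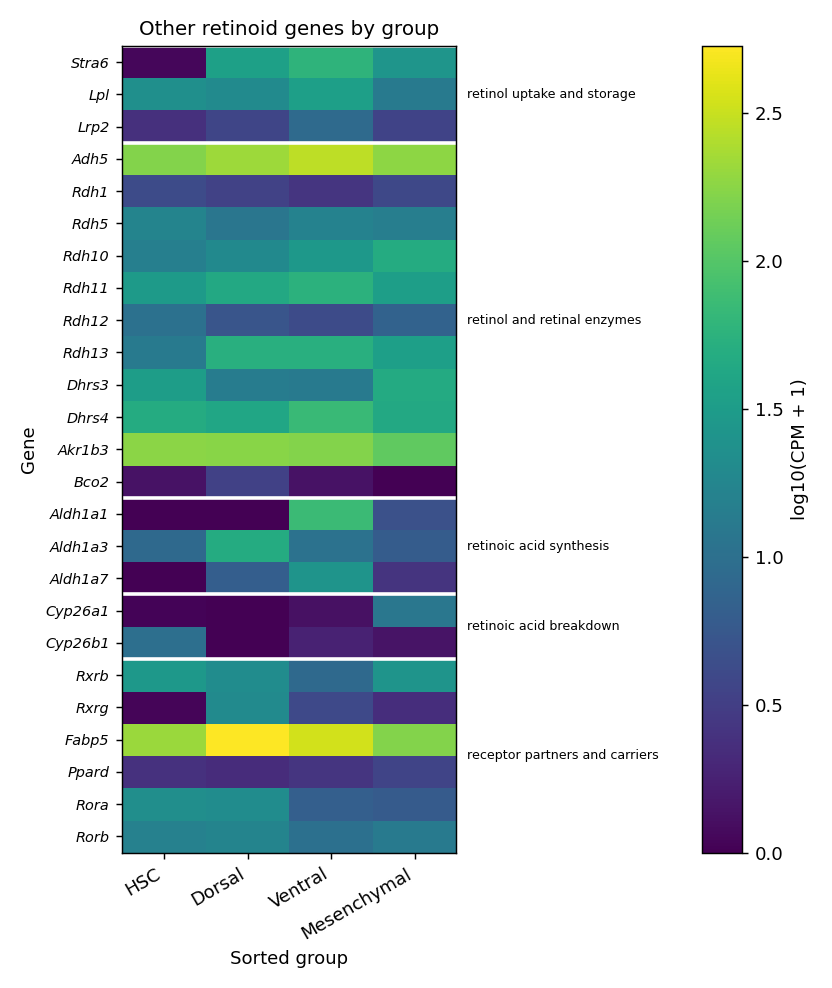
Summed level as log10(CPM + 1) of other measured retinoid genes (rows, grouped by role) in HSC, Dorsal, Ventral and Mesenchymal (columns). Stra6 and Rxrg are near 0 in HSC, Cyp26b1 is brightest in HSC at 8.98 CPM, Aldh1a3 in Dorsal at 46.9 CPM, and the bright Aldh1a1 field in Ventral is 99.5% 1 cell.

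Beside the map of pathway genes, 9 coregulators were measured, and none was apart in HSC. Nrip1 was higher in Dorsal than in Ventral (log2 fold 1.46, and at least 1.38 without the top cell of either group). Ncoa2 was lower in Dorsal than in Ventral, but its log2 fold of -1.27 was -0.14 without Ventral 41. In Ventral against Mesenchymal Ncoa2 and Hdac3 were higher and Ncoa3 lower, and each of these calls was lost without 1 cell, Ventral 41 for Ncoa2 and Hdac3 and Mesenchymal 22 for Ncoa3. Over the listed genes of all roles, 9 of 15 calls in Dorsal against Ventral, 12 of 21 in Ventral against Mesenchymal and 7 of 11 in HSC stayed when the top cell of either group was left out. Of 15 measured genes known to respond to retinoic acid, 2 were higher in Ventral than in Mesenchymal, Hoxb1 and Ret, beside 17.1% of all genes. Lower were 7, among them Meis1, Meis2, Tgm2, Tshz3, Rarres2 and Zfp703, beside 12.9% of all genes. The list median log2 fold was -0.97, beside 0.09 over all genes. The call of Tgm2 here was lost without Mesenchymal 85 (log2 fold -1.35 with it and -0.41 without). Meis1, a homeobox cofactor, was at 154 CPM in HSC, 31.7 CPM in Dorsal, 52 CPM in Ventral and 316 CPM in Mesenchymal. Rarres2, which codes for chemerin, was at 0.913 CPM in Ventral and 37.3 CPM in Mesenchymal. Ret, the receptor of glial cell line-derived factors, was at 34.4 CPM in Ventral and had no count in Mesenchymal. Tgm2, a transglutaminase, was the 1 response gene higher in HSC, at 50.8 CPM against 2.27 CPM in Dorsal, 2.74 CPM in Ventral and 8.55 CPM in Mesenchymal. In Dorsal against Ventral 2 were higher, Hoxd4 and Rarres2, and 3 lower, Hoxb1, Meis2 and Nr2f1, beside 10.1% and 8.3% of all genes. Without Ventral 41, which held 83.6% of the Ventral counts of Nr2f1, the log2 fold of Nr2f1 was 0.74, against -1.53 with it. These genes also answer to other signals, and the part of retinoic acid in any of these levels was not tested.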

How the data were processed

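Single cells of 4 sorted groups were profiled by Smart-seq2, and the labels gave each cell its group and no embryo or litter, so no test was run. The authors deposited estimated counts per gene, made with kallisto 0.43.1 on GRCm38 per the submitters' processing notes, and a log2 table in which, as the values show, a cell's counts were scaled by its own size factor (0.0985 to 19.6) before the logarithm; other steps are not given in the sources used here. Estimated counts need not be whole and are not scaled for depth. Entries without a symbol (661, with 2.96% of counts) were left out of totals. All sample columns were mapped to a cell.

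From these, counts were summed per group and given as CPM with exact Poisson 95% limits, which cover counting error only, as PCR copies are not independent molecules. Log2 folds and calls use ratios of (CPM + 1), while an n-fold value with limits is a ratio of plain CPM; both are for genes that reach 100 counts in the compared groups together, and at least 2-fold was the call. A group at 0 was set at 3 counts for an n-fold bound. An HSC level above all other groups was divided by the highest of them, and one below all by the lowest. Positive cells held at least 5 counts after thinning to 310000 counts, a depth set at percentile 10 of cell totals (to the 10000 below). Shallower cells were left out, 1 from HSC, 1 from Dorsal, 9 from Ventral and 19 from Mesenchymal. Shares have exact Clopper-Pearson limits.

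Ward linkage on 20 principal components of log2(CPM/10 + 1), over the 2000 genes that varied most after retinoid genes were taken out, gave 6 clusters of Dorsal and Ventral cells. These were named by marker lists; no doublet caller was run, as cells were sorted singly. Named genes were the 8 members, the 3 genes closest to each by Spearman's rho among genes with at least 5 counts in 20% of cells, and up to 4 genes of each pathway list; genes named in the deepest Ventral cell and in cells with Aldh1a2 or Rarb were chosen after their values were seen. Some genes that these rules name are not reported here. The members and lists were chosen with earlier results of these data known. No pair of cells within a group correlated above 0.784 and none held duplicate values. Dock10 and Cep97 held 6.98% and 2.20% of counts. Coordinates and exon lengths came from GENCODE M21 on GRCm38 and promoter windows from RefSeq on GRCm38.p6. Scripts used Python 3.11.15, numpy 2.4.6, pandas 2.3.3, scipy 1.17.1 and matplotlib 3.10.9, and were checked on simulated data. Alternatives were other sets of cells, cells weighted equally, other totals and size factors, the deposited log2 table, pseudocounts of 0.1 and 10, no filter, and positive thresholds of 1 and 20 counts.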

Additional observations from a re-analysis of the deposited data

How the results depend on the processing

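No paired analysis was possible because the labels give no replicate numbers that tie cells of different groups together. Across the 5 pairs of groups compared, 23 folds of the 8 genes were at least 2-fold, and from 21 to 23 of them were still at least 2-fold in the same direction under each alternative, though their sizes changed. For Dorsal against Ventral the count of genes 2-fold apart, 2 with all cells, was 4 in cells with an odd i7 index. The count higher in Dorsal, 0 with all cells, was 2 in odd-index cells, 1 in even-index cells and 1 without the cell holding most counts of each gene, which is Rarg. For Ventral against Mesenchymal the count higher, 1 with all cells, was 0 without the deepest Ventral cell, without it and the wells sharing its index, without the deepest cell of each group, in odd-index cells and without the cell holding most counts. The count lower, 3 with all cells, was 5 without the deepest Ventral cell and the wells sharing its index, 5 in the deposited log2 table and 5 without the cell holding most counts. The log2 fold of Adh1, 3.71 with all cells, was -0.77 without the deepest Ventral cell, -2.20 without it and the wells sharing its index, and -3.63 in odd-index cells. The cause of these shifts was not tested beyond the cells left out. The HSC counts stayed within 1.5 times under every alternative run. Settings that leave out the cell with most counts, the deepest cell of a cluster or the deepest Mesenchymal cell with its index wells were chosen after seeing the data. Of 32 shares of positive cells, 29 moved by less than their limits without thinning, while 20 moved with a threshold of 1 count and 24 with 20 counts. Odd-index and even-index cells show spread within a pool and not between embryos.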
